A study of Homo sapiens with 17 samples.

Results

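The genes described here are the RNF and TRIM ubiquitin ligases, taken as every gene of the 1 h TL-seq table whose symbol is RNF or TRIM followed by a number. The rule found 139 of the 19222 genes in that table, 80 of them RNF and 59 TRIM. TL-seq (TimeLapse sequencing) feeds cells the uridine analog s4U and converts the incorporated s4U chemically, so that RNA made during the labeling is read with T-to-C conversions. All samples were wild-type HEK-293T cells, an established line of human embryonic kidney origin, and the groups differed in emetine, an alkaloid that blocks elongation by ribosomes. At 1 h, 3 libraries came from untreated cells and 3 from cells given 1.8 µM emetine, all labeled with 500 µM s4U. A further untreated library and a further emetine library came from cells without s4U. At 2 h, with 250 µM s4U in the labels, 3 libraries were untreated, 3 had 1.8 µM emetine and 3 had 240 µM emetine. Nothing in the labels says whether replicates were separate cultures, so the p-values measure the spread between these libraries only, which may be technical.

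RING ligases are the substrate-binding end of the ubiquitin cascade. An E1 enzyme activates ubiquitin, an E2 enzyme carries it, and the RING, a small fold that holds zinc ions with Cys and His residues, brings the loaded E2 to the substrate. RNF symbols were given to RING proteins of many unrelated kinds. Most TRIM proteins, in contrast, share a RING, 1 or more B-boxes and a coiled coil, followed by C-terminal domains that set their subfamily. Ribosome-associated ligases among the RNF genes act when elongation stalls, and TRIM ligases are best known from antiviral defense and from chromatin.

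The RING core is shown for members on which the results turn. In this core, a Cys, any residue, a His, any 2 residues, a Cys or His, any 2 residues and a Cys follow each other, 9 codons or 27 bases in all. The 4 codons of the zinc-binding residues are in capitals. Each sequence was read from the GENCODE 44 transcript, on the strand of the gene in GRCh38 (hg38), and lies within a single coding exon.
RNF43, chr17:58360207-58360233, minus strand: TGCctcCATgagttcCATcgtaacTGT
RNF111, chr15:59094793-59094819, plus strand: TGTatgCACcttttcCACcaagtgTGT
RNF113A, chrX:119870759-119870785, minus strand: TGCaggCATtatttcTGCgagagcTGT
TRIM11, chr1:228406445-228406471, minus strand: TGCggcCACaacttcTGCcgcgagTGC
TRIM4, chr7:99919297-99919323, minus strand: TGCggcCACaacttcTGCcgcggcTGC
TRIM59, chr3:160439085-160439111, minus strand: TGCtctCATacatttTGTagaaatTGT
TRIM13, chr13:50012013-50012039, plus strand: TGCtccCACaacttcTGCaaaaaaTGC
TRIM32, chr9:116697857-116697883, plus strand: TGTggcCATaccatcTGCcgccagTGC
TRIM28, chr19:58545004-58545030, plus strand: TGTttgCACtcggccTGTagtgccTGC
RNF10, chr12:120557354-120557380, plus strand: TGTggaCACatcttcTGCtgggcaTGC

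Cores with a His at the third zinc-binding position are called RING-H2 and those with a Cys RING-HC. RNF43 and RNF111 hold the RING-H2 form, and the other 8 sequences the RING-HC form. The full RING consensus, searched in the translated coding sequence of 138 members, was found in 120 (87.0%), 76 of 80 RNF and 44 of 58 TRIM. It was found in 245 of the 16283 genes with a coding sequence, or 1.505%. The core could be placed in 115 members. All 30 RING-H2 cores were in RNF genes, and the 85 RING-HC cores were shared between 41 RNF and 44 TRIM genes. Among the 18 members without a match was TRIM66, which is known to lack a RING. Both forms of the core occurred among the members whose labeling differed with emetine, as described below.

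Sequencing depth at 1 h ran from 27416189 to 48852046 reads a library, and genes took 81.1% to 82.3% of them. Without s4U, 0.0504% and 0.0521% of T positions were read as converted, whereas reads made during the labeling carried conversions at 8.49% to 9.53% of T positions. Of the reads of RNF or TRIM genes, 8.86% to 13.9% carried 2 or more conversions with s4U and 0.0211% to 0.0655% without it. Emetine replicate 3 stood apart in level (SD of its deviations across genes 0.258 on the log2 scale, against 0.0878 to 0.155 in the others), and untreated replicate 1 had the lowest share of new reads (7.84% against 10.0% and 11.7% in the other untreated libraries). Vimentin, neurofilament and keratin transcripts of this line were present (VIM 12234 to 21674 reads, NEFM 3309 to 6510), those of blood cells (PTPRC, CD3E, HBB) had 0 reads, and COL1A1 had 595 to 786. Counts carried no molecular identifiers.

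At 1 h, 110 members had more than 100 reads in total over the 6 libraries with s4U and were tested for level, 68 RNF and 42 TRIM. The other 29 (12 RNF and 17 TRIM) had at most 42 reads. They included TRIM54, TRIM55 and TRIM63, the muscle RING-finger proteins, and TRIM22 and TRIM31. Of the 110, 95 had at least 100 reads in each library and were tested for the fraction new, 62 RNF and 33 TRIM. TRIM34, TRIM73 and TRIM74 had only reads that could not be told apart from another gene, so they are not among the members. Of the reads of TRIM39 and TRIM6, 19.9% and 9.88% were shared with a readthrough gene and left out.

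Levels per kb of transcript ran over 4 orders of magnitude in untreated cells, from 0.0366 to 387 CPM per kb, where CPM is the count of a gene scaled to the size of its library. TRIM28, the corepressor that KRAB zinc finger proteins recruit to chromatin, was the highest, at 1228, 1348 and 1326 CPM in the 3 untreated libraries and 1155, 1228 and 970 CPM in the emetine libraries. RNF187 (125 CPM per kb), RNF167 (121), RNF181 (108) and RNF126 (81.0) followed. RNF126 is a ligase of the BAG6 pathway, which clears mislocalized membrane proteins. At the low end were TRIM71, a ligase of pluripotent cells (0.0366 CPM per kb), RNF152 (0.0553), RNF165 (0.0682), TRIM56 (0.120) and TRIM38 (0.399). The median level was 10.6 CPM per kb for RNF, 4.58 for TRIM and 7.11 for all genes tested.

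The fraction new is the share of a gene's reads estimated to have been made within the hour, and in untreated cells it gives a half-life if levels are steady. TRIM transcripts had a median fraction new of 16.4%, 22.6% and 27.5% in the 3 untreated libraries, and RNF transcripts 11.4%, 15.5% and 19.3%. For all genes the medians were 9.26%, 12.3% and 14.7%. Within every untreated library the TRIM median was above the RNF median, and both were above that of all genes, although the libraries differed from each other by as much as the families did. The corresponding half-lives were 2.92 h ± 0.880 for TRIM, 4.36 h ± 1.25 for RNF and 5.58 h ± 1.41 for all genes (mean ± SD of the library medians, n = 3). The 60 other RING ligases tested, among them MDM2 and XIAP, had a median half-life of 3.47 h ± 1.07, and the 33 E2 enzymes 7.06 h ± 1.74. The E1 genes UBA1 and UBA6 were at 14.8 h ± 3.82. A half-life under 2 h was found for 21 of 95 members (22.1%), 14 RNF and 7 TRIM, and for 14.4% of all genes. In cells with emetine, the medians drew together, at 13.1% ± 0.885 for RNF, 14.7% ± 0.788 for TRIM and 10.7% ± 0.369 for all genes.

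**Figure D1:**
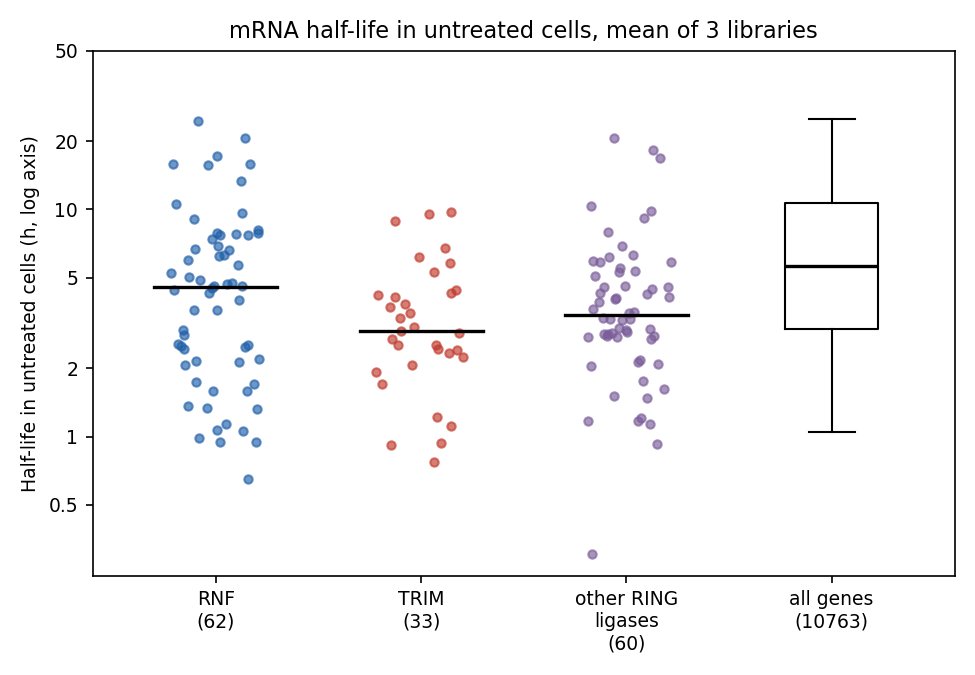
Half-life in untreated cells at 1 h, in hours on a log axis, each point 1 gene as the mean of 3 libraries, with the median of each set as a line; for all genes a box spans the middle 50% and whiskers the 5th to the 95th percentile. The RNF genes reach from 0.651 h to 24.5 h, the TRIM genes from 0.775 h to 9.74 h, and their medians (4.56 h and 2.91 h) lie below that of all genes (5.65 h).

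The members at the short-lived end were RNF43, which removes Wnt receptors from the cell surface (half-life 0.651 h ± 0.0315), TRIM11 (0.775 h ± 0.205), TRIM59 (0.914 h ± 0.0880), TRIM13 (0.940 h ± 0.243) and RNF111, which amplifies TGF-β signaling by degrading its repressors (0.946 h ± 0.356). RNF43 was the steadiest of these over the untreated libraries. At the long-lived end were RNF130 (24.5 h ± 8.31), RNF115, the other BAG6 ligase (20.6 h ± 12.4), RNF181 (17.2 h ± 2.89), RNF123, the catalytic subunit of a complex that degrades p27 (15.9 h ± 2.12), and RNF5, a ligase of the ER membrane (15.9 h ± 5.13). Their order could not be resolved, since their fractions new were 3.004% to 4.55% with SDs of 0.566 to 1.83 percentage points. No TRIM gene had a half-life above 9.74 h (TRIM14).

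The fraction new of 13 of the 95 members was lower with emetine and that of none higher, where 4.83% of all genes tested were lower and 0.214% higher (limma on the logit scale, Benjamini-Hochberg adjusted p under 0.05). At an unadjusted p under 0.05, 29 members were lower (15.4% of all genes) and again none higher (1.15%). The 13 were RNF43, RNF111, RNF113A, RNF219, RNF122 and RNF19A, or 6 of 62 RNF genes (9.68%), and TRIM11, TRIM59, TRIM4, TRIM32, TRIM35, TRIM13 and TRIM66, or 7 of 33 TRIM genes (21.2%). In each of the 13, every emetine library was below every untreated library, a separation seen in 27 of the 95 members and in 16.8% of all genes. The opposite separation was seen in 0 members and 2.19% of all genes. Their median fraction new fell from 50.6% ± 9.21 in untreated cells to 30.3% ± 0.597 with emetine (mean ± SD of library medians, n = 3). The 13 were selected by this difference in the same libraries, so the fall is a description and its size may be overstated. The number of calls depended on single libraries. It was 39 without untreated replicate 1, where 23.4% of all genes were lower and 0.39% higher. It was 1 (RNF43) when the third untreated library was left out, where 0.886% of all genes were lower. Leaving out the second untreated library gave 2 (1.67% of all genes), and leaving out emetine replicates 1, 2 and 3 gave 2, 2 and 3 (1.55%, 1.8% and 1.9%). With at least 500 reads in each library, 4 were lower (3.22% of all genes, with 0.198% higher).

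RNF43 had the highest fraction new of all members, with 65.3%, 63.9% and 67.4% in the untreated libraries and 42.2%, 36.2% and 41.8% with emetine. The groups were far apart and untreated replicate 1 was no exception here (change in logit −1.05, SE 0.24, limma adjusted p = 0.0026). TRIM11, a TRIM of the large subfamily with a C-terminal B30.2 domain, went from 50.4%, 59.99% and 69.8% to 33.0%, 34.3% and 33.4% (−1.10, SE 0.23, adjusted p = 0.00127). Both stayed called in 5 of the 6 fits that left out a library. RNF111 went from 40.1%, 58.9% and 62.7% to 28.9%, 32.7% and 29.6% (−0.99, SE 0.23, adjusted p = 0.00405) and stayed called in 3 of these fits. The other 10 stayed called in 1 of the 6, the one without untreated replicate 1.

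RNF113A, a spliceosome protein encoded by a gene with a single coding exon, had a fraction new of 41.6%, 55.2% and 57.2% in untreated and 30.8%, 30.8% and 27.3% in emetine-treated cells (−0.92, SE 0.23, adjusted p = 0.00617). RNF219, listed as OBI1 in GENCODE 44, ubiquitinates the origin recognition complex. Its values were 37.4%, 55.0% and 55.9% without and 29.5%, 30.8% and 32.7% with emetine (−0.78, SE 0.23, adjusted p = 0.0281). RNF122 (−0.75, adjusted p = 0.0356) and RNF19A (−0.72, adjusted p = 0.0488) completed the RNF genes. RNF19A, a ligase of the RING-between-RING type, showed the narrowest gap of the called RNF genes. Its lowest untreated value, 34.3%, was close to its highest emetine value, 33.0%.

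TRIM59 and TRIM13, the 2 members of the TRIM subfamily with a transmembrane segment, were both lower. TRIM59 went from 49.5%, 54.6% and 55.8% to 33.9%, 31.3% and 32.2% (−0.86, SE 0.23, adjusted p = 0.0105). TRIM13, a ligase of the ER membrane, went from 43.6%, 54.6% and 61.1% to 30.5%, 35.0% and 36.5% (−0.79, SE 0.23, adjusted p = 0.0262), and 1.97% of its reads were left out because they were shared with KCNRG. TRIM32, an NHL-repeat protein mutated in a muscular dystrophy, had the smallest SD of the 13 among the emetine libraries, with 38.3%, 45.5% and 47.0% without and 25.7%, 25.5% and 26.2% with emetine (−0.80, SE 0.22, adjusted p = 0.0157). TRIM35 had 39.4% to 53.7% without and 24.3% to 30.4% with emetine (−0.82, adjusted p = 0.0158). Next to these, TRIM4 and TRIM66 were longer-lived. TRIM4 had 17.2%, 27.2% and 32.7% without and 13.7%, 14.0% and 11.9% with emetine (−0.79, adjusted p = 0.014), and TRIM66 had 16.4%, 23.5% and 34.9% against 14.8%, 15.0% and 11.8% (−0.69, adjusted p = 0.0488). In 10 of the 13, all but RNF43, TRIM32 and TRIM59, the untreated libraries ranged over more than the closest distance between the groups.

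**Figure D2:**
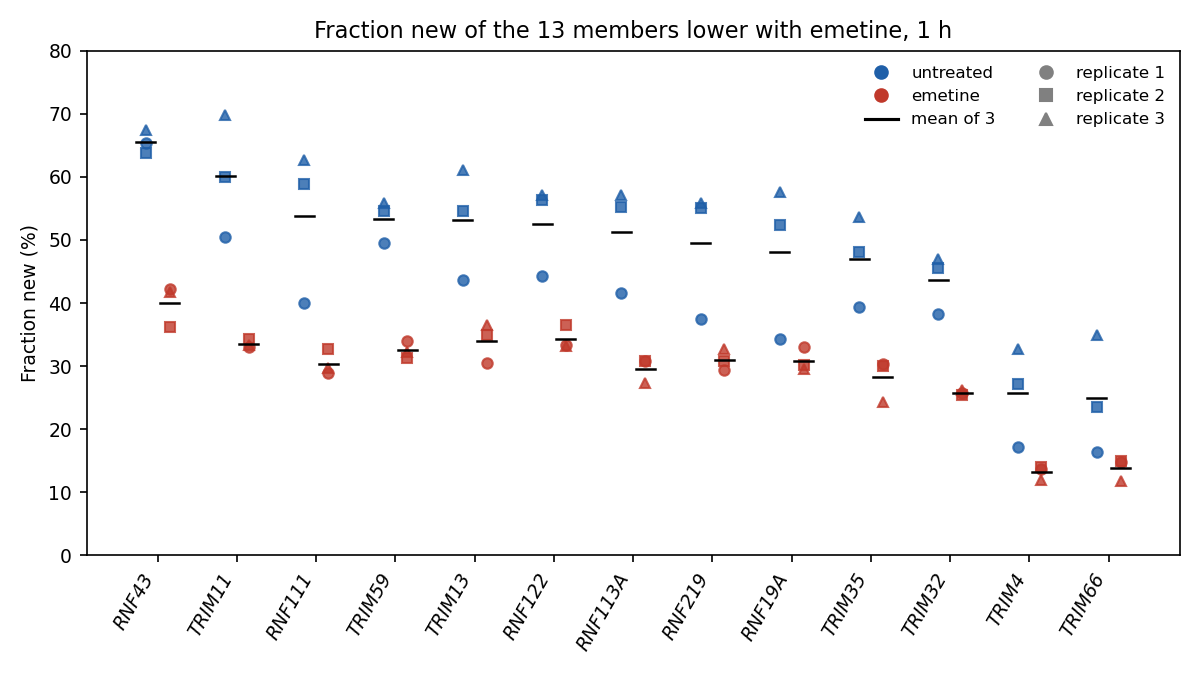
Fraction new in percent of the 13 members called lower, with 3 untreated (blue) and 3 emetine libraries (red) each, marker shape giving the replicate number and the bar the mean. No red point reaches a blue one of the same gene, and untreated replicate 1 is the lowest untreated point in every gene but RNF43, where it lies at 65.3% between 63.9% and 67.4%.

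The calls lay among short-lived members, but not every short-lived member was called. The 31 members with the highest untreated fraction new (25.5% to 65.5%) held 12 of the 13 calls (38.7% of them), and 17.9% of all genes in the same range were called lower. Of the next 33 members 1 was called (3.03%), against 1.74% of all genes in their range. Of the lowest 31, limma called 0, against 0.313%, and 1 was lower at an unadjusted p under 0.05, against 3.09%. RNF4, a ligase for SUMO-modified proteins, and RNF139, a sterol-regulated ligase of the ER, were the 2 members not called among the 13 with the highest untreated fraction new. RNF4 had 38.7%, 54.1% and 55.3% without and 37.8%, 38.2% and 37.7% with emetine, so the groups were separated by under 1 percentage point (−0.47, SE 0.23, adjusted p = 0.289). RNF139 had 29.6%, 47.2% and 52.3% against 35.9%, 39.4% and 42.2%, with overlapping groups (−0.15, SE 0.23, adjusted p = 0.838). Across the 95 members, the untreated fraction new and the change in logit had a Spearman correlation of −0.676, and across all genes −0.545. Both quantities contain the untreated libraries, so these are descriptions only.

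The change was negative in 85 of 95 members, in all 33 TRIM and in 52 of 62 RNF genes, and in 8132 of all 10763 genes tested. When each library was centered on its own median, it was negative in 28 TRIM and 43 RNF genes, a count not made over all genes. The median change in logit was −0.44 for TRIM, −0.19 for RNF and −0.16 for all genes (−0.31, −0.067 and −0.035 after centering), and the difference between the families was not tested. RNF13 (0.36) and RNF141 (0.29) had the largest positive changes, neither past the test. The share of Cys and His codons (median 6.46% in members and 4.33% in all genes) showed little relation to the change (Spearman −0.126, 95 members). Calls were made in 8 of 53 members with a RING-HC core, 3 of 24 with a RING-H2 core and 2 of 18 without a placed core. Of all genes tested, 4.83% were called lower.

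The level of 2 of the 110 members rose with emetine and that of none fell, where 2.64% of all genes tested were higher and 0.0436% lower (edgeR quasi-likelihood test, adjusted p under 0.05). Both were also among the 13 with a lower fraction new. RNF219 had 36.8, 40.7 and 35.7 CPM in untreated and 57.6, 59.8 and 68.7 CPM in emetine libraries (1.64-fold, log2 0.72, SE 0.10, edgeR adjusted p = 0.0128). RNF19A had 10.9, 9.83 and 9.44 CPM against 15.4, 14.9 and 19.5 CPM (1.65-fold, log2 0.72, SE 0.14, adjusted p = 0.0378). In neither gene did the groups overlap. In the untreated library without s4U, however, RNF219 was at 57.8 CPM and RNF19A at 15.5 CPM, close to the lower emetine values. The emetine library without s4U was higher than the untreated one without s4U by only 0.17 and 0.065 on the log2 scale. CPM of the libraries without s4U came from a separate scaling, so small distances to the libraries with s4U are not resolved. The part of s4U in these levels was not tested. Both calls were lost with the replicate number as a block (0.544% of all genes higher, 0.0218% lower), with scaling to spike-ins and without any one of the untreated libraries, whereas without emetine replicate 3 there were 15 members higher and 3 lower (RNF187, RNF26 and RNF5), where 10.1% and 3.87% of all genes were. DESeq2 called 10 members higher and none lower (5.95% and 1.13% of all genes).

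At an unadjusted p under 0.05, edgeR gave 28 members higher and 3 lower, against 14.9% and 6.95% of all genes. All 3 emetine libraries were above all 3 untreated libraries in 35 of 110 members and below them in 11, against 19.5% and 15.2% of all genes. These were 15 and 9 RNF genes but 20 and 2 TRIM genes. The median log2 change was 0.28 for TRIM, 0.043 for RNF and 0.030 for all genes. Scaling to spike-ins shifted the median of all genes to 0.71, and those of TRIM and RNF to 0.96 and 0.73. Without emetine replicate 3, they were 0.18 and 0.0031, with 0.0093 for all genes.

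The other 11 members with a lower fraction new had levels above untreated on average, but none passed the test of level. RNF111 was at 10.9, 11.2 and 12.5 CPM in untreated libraries and at 15.5, 17.0 and 30.1 CPM with emetine (log2 0.85, SE 0.24, adjusted p = 0.106), the high value being emetine replicate 3. RNF43 went from 10.1, 12.5 and 10.0 CPM to 15.2, 15.5 and 16.8 CPM (log2 0.54, SE 0.13, adjusted p = 0.0701), and TRIM11 from 72.6, 85.2 and 76.6 CPM to 106, 115 and 93.7 CPM (log2 0.42, SE 0.11, adjusted p = 0.0754). RNF113A was the exception, with 47.9, 55.6 and 58.5 CPM against 59.9, 62.2 and 40.4 CPM (log2 0.0068, SE 0.16, adjusted p = 0.984), a direction that turned under other scalings. Its low value was emetine replicate 3, and without that library the log2 change was 0.18. In the pair without s4U, the emetine library was the higher in all 13, with a median log2 difference of 0.25. It was also the higher in 47 of the 82 other members tested for the fraction new and in 47.9% of all genes. RNF43 had the largest difference of the 13 (10.4 against 16.3 CPM, log2 0.63). This pair has no replicates.

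**Figure D3:**
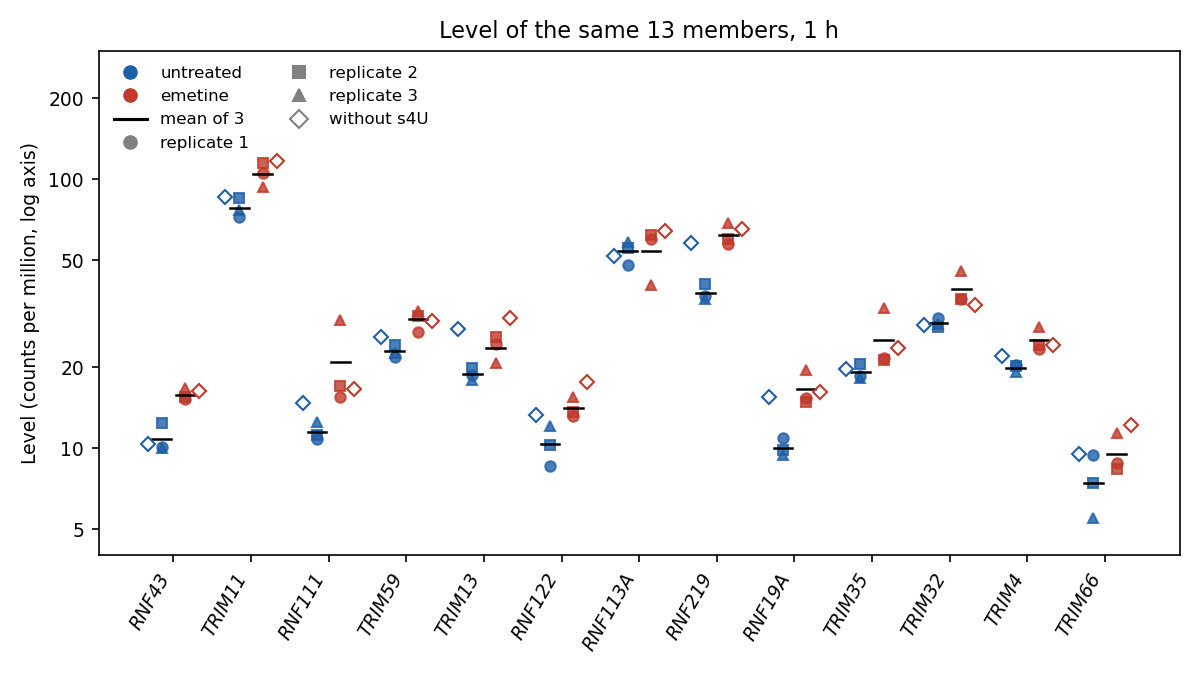
Level in CPM on a log axis of the same 13 members, with untreated (blue) and emetine libraries (red), replicate number by shape, the mean as a bar and the library without s4U of each treatment as an open diamond. The open blue diamonds of RNF219 and RNF19A, at 57.8 and 15.5 CPM, lie above the 3 blue points of the same gene and near the red ones. Diamonds were scaled separately from the other points.

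Level and fraction new together showed where the members lay. Of the 95, 61 (64.2%) had a higher level and a lower fraction new on average, and 42.9% of all genes did. The 13 called members lay in the lower right part of the cloud of all genes, apart from RNF113A, whose mean level was close to that of untreated cells. Across the 95 members the changes had a Spearman correlation of −0.519.

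**Figure D4:**
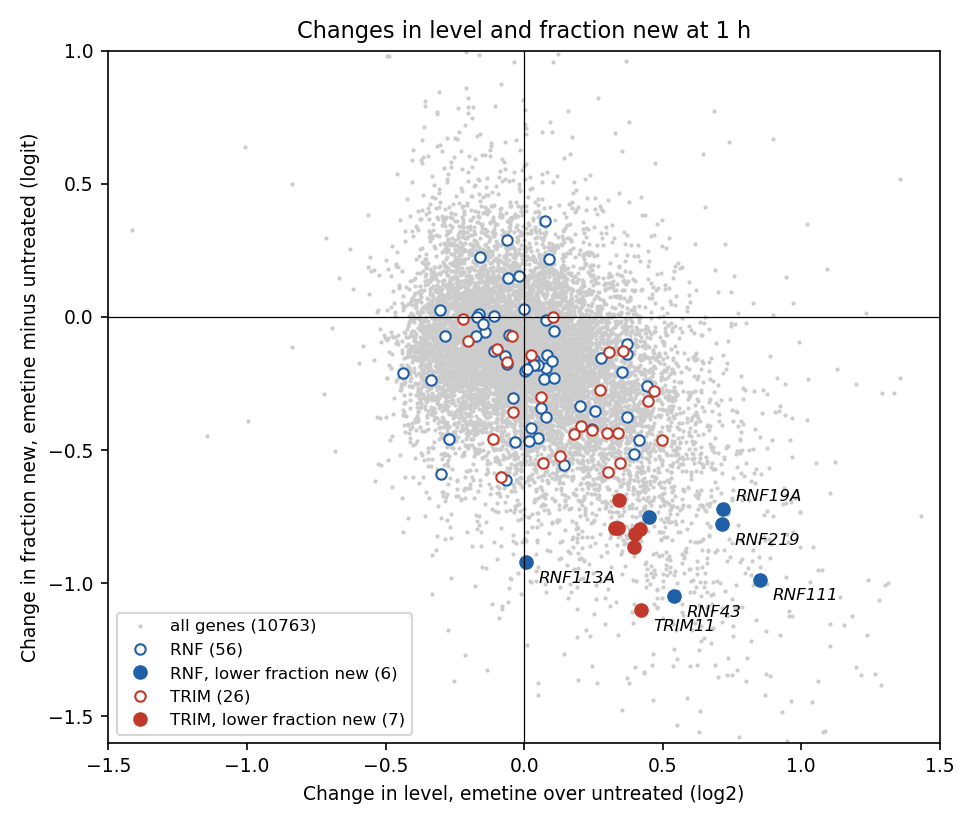
Change in level (log2, x axis) against change in fraction new (logit, y axis) at 1 h for all 10763 genes tested for both (grey), the RNF (blue) and TRIM genes (red), filled where the fraction new was called lower. Filled points lie at log2 changes of 0.0068 to 0.85 and logit changes of −0.69 to −1.10. No member and 58 other genes lie outside the axes.

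To separate old from new RNA, the level of each library was split by its fraction new into labeled and unlabeled reads. The unlabeled reads of 13 members were higher with emetine and those of none lower, where 7.3% and 0.0929% of all genes were (limma on log2 of CPM plus 0.5, adjusted p under 0.05). At an unadjusted p under 0.05, 2 members had fewer unlabeled reads, against 7.07% of all genes. The labeled reads of no member were called in either direction, where 0.632% of all genes were lower and 0.26% higher. At an unadjusted p under 0.05, 9 members had fewer labeled reads and none more, against 10.6% and 1.64% of all genes. Of the 13 members with a lower fraction new, 9 were among those with more unlabeled reads (RNF43, RNF111, RNF219, RNF19A, RNF122, TRIM11, TRIM59, TRIM32 and TRIM13). Unlabeled reads were computed from the same fraction new, so this overlap is partly built in. Labeled and unlabeled reads had the scaling of the main level fit only. Scaling to spike-ins, which shifted the median level change of all genes from 0.030 to 0.71, was not run for them. Their changes, and the sign of small ones, hold under the main scaling only.

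RNF43 had 3.50, 4.51 and 3.26 unlabeled CPM in untreated and 8.80, 9.89 and 9.76 in emetine libraries (log2 1.24, SE 0.16, adjusted p = 0.00277). Its labeled reads stayed within 6.58 to 7.96 CPM without and 5.61 to 7.01 CPM with emetine (log2 −0.15, SE 0.25, adjusted p = 0.888). RNF219 went from 23.0, 18.3 and 15.7 unlabeled CPM to 40.7, 41.4 and 46.2 (log2 1.16, SE 0.15, adjusted p = 0.00281), while its labeled reads ran from 13.8 to 22.4 CPM without and from 17.0 to 22.5 CPM with emetine. TRIM11 went from 36.0, 34.1 and 23.1 unlabeled CPM to 70.8, 75.4 and 62.4 (log2 1.17, SE 0.17, adjusted p = 0.00466), with labeled reads of 36.6 to 53.4 CPM against 31.3 to 39.3 CPM (log2 −0.40, SE 0.21, adjusted p = 0.438). In all 3 genes the unlabeled values of the groups did not overlap, and the labeled values did.

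RNF113A differed from these in the fit of all 6 libraries. Its labeled reads were 19.9, 30.7 and 33.5 CPM without and 18.5, 19.1 and 11.01 CPM with emetine (log2 −0.78, SE 0.23, adjusted p = 0.0592), and its unlabeled reads 24.9 to 28.0 CPM against 29.4 to 43.1 CPM (log2 0.52, SE 0.15, adjusted p = 0.0806). Emetine replicate 3 was the lowest emetine library in both. Without that library, RNF113A had its unlabeled reads called higher, as did 13.6% of all genes. With the replicate number as a block, its labeled reads and those of RNF26 passed the test as lower (0.66% of all genes), and the unlabeled calls numbered 6 (3.25% of all genes; RNF43, RNF219, RNF122, TRIM11, TRIM13 and TRIM59). RNF26, an ER ligase, had a similar estimate for labeled reads (log2 −0.78, SE 0.22, adjusted p = 0.0528). Without untreated replicate 1, 22 members had fewer labeled reads (16.1% of all genes). Unlabeled calls numbered 26 when emetine replicate 3 was left out (13.6% of all genes), and 4 and 5 when the second and the third untreated library were (2.68% and 2.54%).

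4 members had more unlabeled reads but no call for the fraction new. RNF168 and RNF169, which bind ubiquitinated chromatin at DNA breaks, had log2 changes of 0.54 (SE 0.12, adjusted p = 0.0254) and 0.54 (SE 0.14, adjusted p = 0.0446). RNF138, a ligase in the repair of DNA breaks, had 0.43 (SE 0.094, adjusted p = 0.027), with 95.3, 93.7 and 87.6 unlabeled CPM without and 120, 118 and 135 with emetine. In the pair without s4U, RNF138 was lower with emetine (145 against 99.6 CPM). TRIM65 had 0.47 (SE 0.11, adjusted p = 0.0336).

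**Figure D5:**
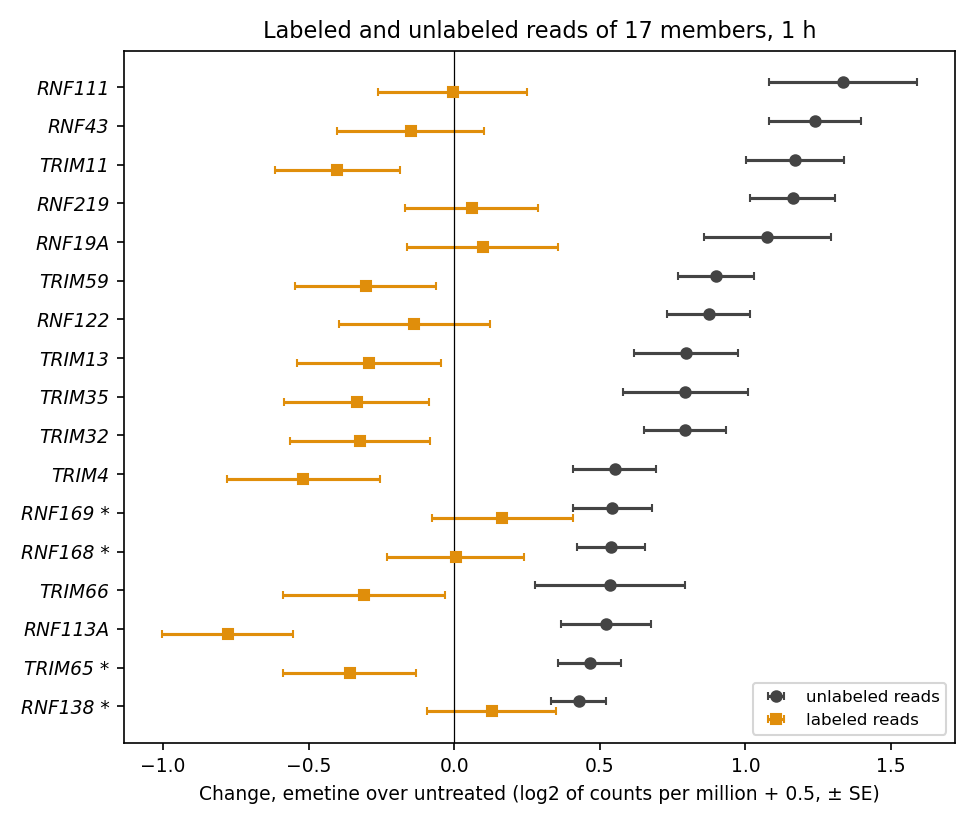
Change with emetine in labeled (orange squares) and unlabeled reads (grey circles) on the log2 scale of CPM plus 0.5, with bars of 1 SE, for the 17 members called for a lower fraction new, more unlabeled reads or both; a star marks the 4 without a call for the fraction new. Unlabeled changes run from 0.43 to 1.34, and labeled changes from −0.78 to 0.17.

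By role, the calls were spread over several groups. Over all genes, 4.83% were called for a lower fraction new and 7.3% for more unlabeled reads. The 3 ligases of ribosome quality control had no call in any of the 4 measures. RNF10 ubiquitinates proteins of the small ribosomal subunit, and RNF14 and RNF25 act on factors trapped in stalled ribosomes. RNF10 had a fraction new of 7.40%, 8.95% and 9.14% in untreated and 8.65%, 9.29% and 7.57% in emetine-treated cells (change in logit 0.0021, SE 0.21), so the groups overlapped. RNF25 went from 21.2%, 26.6% and 27.6% to 17.8%, 19.1% and 17.1%, without overlap, but was not called (−0.42, SE 0.21, adjusted p = 0.296), and RNF14 from 13.7% ± 3.88 to 10.9% ± 1.71 (SD, n = 3; adjusted p = 0.676). Their levels differed by log2 −0.11, 0.026 and 0.072 for RNF10, RNF25 and RNF14, and that of RNF10 was positive (0.57) only with scaling to spike-ins.

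Among 8 ligases of histones and DNA damage (RNF2, RNF4, RNF8, RNF20, RNF40, RNF111, RNF168 and RNF169), 1 had a lower fraction new, RNF111, and 3 had more unlabeled reads, RNF111, RNF168 and RNF169. RNF20 and RNF40, which together ubiquitinate histone H2B, had small changes in logit of opposite sign (0.22 and −0.20, SE 0.21 each). TRIM13, called lower, was not counted among the ER ligases here, which were RNF genes only. In these 8 RNF ligases of the ER membrane there was no call for level or fraction new, and their median half-life was 3.59 h ± 0.993. Within them, RNF103 (fraction new 42.0% ± 8.52) and RNF139 were short-lived and RNF5 and RNF121 (5.31% ± 2.40) long-lived. Of 8 RING-between-RING ligases, 7 of which were tested for the fraction new, only RNF19A was called. Its paralog RNF19B went from 34.2% ± 5.79 to 22.9% ± 2.24 without passing the test (adjusted p = 0.127). Among transmembrane ligases with a protease-associated domain, RNF43 was called, whereas RNF130 (3.004% against 2.91%), RNF167 (8.78% against 8.17%), RNF128, RNF13 and RNF149 were not.

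In the TRIM genes, 3 of 14 tested members of the B30.2 subfamily were lower (TRIM4, TRIM11 and TRIM35), where 4.83% of all genes tested were. All 14 had a negative change, as had 8132 of 10763 genes. TRIM27 (21.4% ± 5.23 to 13.7% ± 0.640, adjusted p = 0.154) and TRIM65 (25.1% ± 3.74 to 15.8% ± 1.65, adjusted p = 0.0908) were among those below the threshold of the call. In the subfamily with PHD and bromodomains, TRIM66 was called, and TRIM24, TRIM28 and TRIM33 were not. TRIM28 had 5.98%, 7.06% and 8.32% without and 7.32%, 6.51% and 7.26% with emetine, with overlapping groups. TRIM24 and TRIM33 had 18.0% ± 5.22 and 22.4% ± 5.55 without and 14.0% ± 1.12 and 17.2% ± 1.72 with emetine. Of the NHL subfamily, TRIM32 was called and TRIM2 and TRIM3 were not, and TRIM71 had too few reads. Outside the RNF and TRIM genes, 4 of 60 other RING ligases had a lower fraction new (6.67%), 5 of 63 a higher level and 12 of 60 more unlabeled reads. Among RNF and TRIM genes these were 13 of 95, 2 of 110 and 13 of 95, and over all genes 4.83%, 2.64% and 7.3%. Of the E2 enzymes, 1 of 33 had a lower fraction new and 0 of 34 a changed level by edgeR, and neither E1 gene was called.

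7 members tested for the fraction new had a single coding exon. Of these, RNF113A, TRIM13, TRIM32 and TRIM59 were called lower, where 4.83% of all genes tested were. Their untreated fractions new were 43.6% to 53.3%, higher than in the uncalled members. The share among all genes with a single coding exon was not computed. RNF26 (24.9% ± 3.97 in untreated cells, change −0.46, adjusted p = 0.231), RNF182 (24.2% ± 1.92, −0.35, adjusted p = 0.439) and RNF208 (10.7% ± 6.76, −0.59, adjusted p = 0.733) were not called. The 13 called members and the other 82 had a median transcript length of 3824 and 3492 bases, 6 and 7 coding exons, and 7.16% and 6.35% Cys and His codons. Their median untreated level was 19.1 and 38.6 CPM. This grouping was made after the values were seen.

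The 2 h tables list 91 of the 139 members, 59 RNF and 32 TRIM, among 9982 genes, and the low-dose and high-dose tables give the same mean for every gene. These are the authors' means over the 2 h libraries, so they hold no comparison between doses. Their median was 768 normalized counts for the members (804 for RNF and 644 for TRIM) and 845 for all genes. TRIM28 was the highest (5846), followed by RNF40 (4882), of the H2B ligase, and TRIM33 (4556), and RNF135 the lowest (134). Of the 13 members with a lower fraction new at 1 h, 12 were listed, from RNF113A (226) and TRIM66 (249) to RNF219 (3514), and RNF122 was not. The 2 h mean and the 1 h untreated level had a Spearman correlation of 0.514 over the 91 members. The libraries were made by different methods, the 1 h libraries from poly(A) RNA and the 2 h libraries from total RNA, and time and method cannot be told apart.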

How the data were processed

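The authors trimmed reads with cutadapt, mapped them to hg38 with hisat-3n and ran bam2bakR to tally T-to-C conversions. The deposited 1 h table gives read counts per library, gene and number of conversions and T positions, not normalized. Spike-in reads are among them. For 2 h, the deposited signal values are the authors' means of counts divided by ERCC size factors. Columns holding the authors' fold changes and p-values were not used, nor was the table of spike-in factors. No column of another sample was found.

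Levels of 110 members were fitted with all 13776 genes above 100 reads in total over 6 libraries (edgeR 4.0.16, TMM, quasi-likelihood). The fraction new was the maximum likelihood weight of a binomial mixture, with the background rate from the library without s4U, bounded at 0.001 and 0.999. Its logit, and log2 of labeled and unlabeled CPM plus 0.5, were fitted for the 10763 genes that every one of the 6 libraries covered with 100 reads or more (limma 3.58.1, trend and robust). P-values are two-sided and adjusted by Benjamini-Hochberg over all genes fitted. Half-life is −ln(2) times 1 h over ln(1 − fraction new). Tools were R 4.3.3, DESeq2 1.42.0 and Python 3.11.15 with matplotlib 3.10.9, pandas 2.3.3, scipy 1.17.1 and numpy 2.4.6.

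Symbols were matched to GENCODE 44 (138 members by symbol, 1 by an older symbol). The members, role lists and tests were chosen with earlier results of these data known. Named members are those called, the 5 at each end of untreated level per kb and of fraction new, and those of the role lists. Members named outside this rule, such as RNF13, RNF141, RNF182 and RNF208, were chosen after their values were seen. Alternatives covered normalization (for level only), filters, DESeq2, rates, centering, weights, added CPM, the replicate number and each library left out. With 3 libraries a group, precision rests on the spread between them.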

Additional observations from a re-analysis of the deposited data

How the results depend on the processing

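Among the counts of calls, members with a higher level numbered 2 and became 10 with DESeq2, 0 with the replicate block, 0 with spike-in scaling and 0 to 15 when single libraries were left out, and those with a lower level 0 to 3. A lower fraction new was called for 13 members and for 4 and 6 with a minimum of 500 and 50 reads, 1 to 39 with single libraries left out, and 13 with the replicate block; after centering, 18 were lower and 1 (RNF141) higher (6.95% and 1.17% of all genes). With single libraries left out, 0 to 22 members had fewer labeled reads, and 4 to 26 had more and 0 to 2 fewer unlabeled reads. The replicate block gave 2 members with fewer labeled and 6 with more unlabeled reads. The replicate numbers did not pair the libraries (correlations of deviations in level 0.070, −0.015 and −0.18), so the block shares only a number; it left the calls for fraction new as they were.

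Median changes by family kept their sign. In level, spike-in scaling gave 0.73 for RNF and 0.96 for TRIM, and the TRIM median ran from 0.18 to 0.30 with libraries left out. For the logit of the fraction new, centering gave −0.067 for RNF and −0.31 for TRIM, 500 reads gave −0.34 for TRIM, and left-out libraries −0.40 to −0.065 and −0.53 to −0.26. Median fractions new and half-lives moved by less than 1 SD under the alternatives run.

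Among single members, 356 values held their direction and call, 80 lost and 14 gained a call, and 16 changed sign, all of them uncalled. In level these were RNF113A (−0.017 with DESeq2, −0.016 with its size factors, −0.012 with the replicate block, −0.11 to 0.18 without 1 library), RNF25 (−0.066 to 0.14 without 1 library), RNF10 (0.57) and TRIM28 (0.44) with spike-ins. For the fraction new they were RNF10 (−0.071 to 0.064 without 1 library) and TRIM28 (0.0021 with 1 new-read rate, 0.12 after centering, −0.095 to 0.083 without 1 library). The causes were not tested.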
